A study of Picea abies with 40 samples.

Results

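Zone 4 of the Norway spruce seedling root was compared with zone 3, the step that closes a series of 4 segments collected from the tip. The zones are taken to be numbered from the tip, an order that the labels do not spell out. The comparison used 10 of the study's 40 RNA sequencing libraries, 5 of zone 4 and 5 of zone 3, chosen by the zone given in the labels. Norway spruce (Picea abies) is a conifer, and its seedlings were grown on plates and harvested about 2 days after germination. The labels name no genotype or treatment, so the zones differ by position alone as far as the labels go. Of the segments, 3 measured 1 mm and 1 measured 2 mm, and the sources used here do not say which was the longer. Zone 1 and zone 2, with 5 libraries each, served to place the levels of zones 3 and 4. Stele 1, stele 2, stele 3, ground tissue and the QC area (abbreviated as in the labels), with 4 libraries each, came from laser capture microdissection, in which chosen cells are cut out of tissue sections with a laser. The design text places the captured steles in the elongation and differentiation zones. The stele columns, assigned by elimination, carry Z1 to Z3, and the zone columns carry Z1 to Z4. No captured column carries the number 4. The sources used here do not spell out which stele lies at which zone.

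A growing root is organised along its length. Cells divide near the tip, lengthen behind it, and then mature, and genes for division, wall extension and specialised functions are known to be used in that order. The stele is the central cylinder in which the water- and sugar-conducting tissues form, and ground tissue surrounds it. A segment of whole root holds all of these tissues together. A higher or lower value in a segment can therefore come from the number of cells of a type or from the RNA in each cell, which cannot be told apart in such samples.

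No names come with the gene IDs, so genes appear by ID and without a function. Library totals ran from 4067360 to 7254280 counts in zone 4 and from 4253880 to 6079460 in zone 3. The captured libraries held 4936950 to 11991600 counts. The biological coefficient of variation, the spread between replicates beyond counting error, was 16.02% among zone libraries and 48.2% among captured libraries. The labels do not say whether replicates came from separate seedlings or pools, so the p-values measure the spread between these libraries, which may be technical.

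The 5 zone 3 libraries were not alike. On a line drawn through the mean profiles of zone 2, set to 0, and zone 4, set to 1, zone 3 replicate 2 lay at 0.326, replicate 5 at 0.4657, replicate 4 at 0.522, replicate 1 at 0.580 and replicate 3 at 0.657. The zone 4 libraries lay between 0.977 and 1.02. In zone 2 as well, replicate 2 was lowest on this line, at -0.0919, and replicate 3 highest, at 0.102. Without zone 3 replicate 2, 12931 genes were called in zone 4 against zone 3, against 13580 with it. This fall was not particular to replicate 2. Without zone 3 replicate 5, 12901 genes were called, and leaving out each zone library in turn gave 12480 to 13973.

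Among 27767 genes tested out of 70736 listed, 13580 differed between zone 4 and zone 3, a share of 48.9% (edgeR's quasi-likelihood test, Benjamini-Hochberg adjusted p under 0.05). Zone 4 was higher for 7246 of them, 26.1% of the genes tested, and lower for 6334, 22.8%. The median log2 fold change was 0.94 for the higher genes, with 25% to 75% quantiles of 0.60 and 1.52, and -0.78 for the lower genes, with quantiles of -1.20 and -0.52. The risen genes had a median level of 16.4 CPM, the count scaled to a common library total, in zone 4 and 7.64 CPM in zone 3. The fallen genes had a median of 12.6 CPM in zone 4 and 23.0 CPM in zone 3.

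Large changes were mostly rises. An 8-fold difference or more was reached by 463 risen genes (6.39% of them) and by 187 fallen genes (2.95%). At 4-fold the counts were 1056 risen and 574 fallen genes, and at 2-fold they were 3350 (12.1% of the genes tested) and 2224 (8.01%). The libraries of both zones did not overlap for 4918 of the risen genes (67.9%) and for 4184 of the fallen genes (66.1%), where 18.0% of all genes tested had every zone 4 library above every zone 3 library and 15.3% had the reverse. The calls were made on these same libraries, so the higher shares follow from the calls and are no separate support. Genes that had no count in any zone 3 library, a count in every zone 4 library and a mean of at least 1 CPM there numbered 101. In the opposite direction there were 4, with means of at most 1.77 CPM in zone 3. Of the 101, 73 also had no count in zones 1 and 2. Only 29 of the 101 passed the filter on low counts, and that filter kept them for their zone 4 level. Without zone 3 replicate 3, 158 genes met the rule.

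The counts of zone 4 were spread over more genes than those of zone 3. In zone 4 the 100 most counted genes took 15.9 ± 0.642% of a library's counts, against 18.3 ± 0.342% in zone 3 (SD, n = 5 each). The zone 4 libraries ran from 14.9% to 16.5% and the zone 3 libraries from 18.0% to 18.9%, without overlap. It took 1384 ± 78.3 genes to reach 50% of the counts in zone 4 and 1063 ± 36.4 genes in zone 3 (SD, n = 5 each). Both differences gave p = 0.00794 in a two-sided exact permutation test, also after adjustment over 4 such measures, the smallest p that 5 against 5 libraries allow. The genes needed for 50% of the counts numbered 1046 ± 41.8 in zone 1 and 1099 ± 35.5 in zone 2 (SD, n = 5 each). On this measure zone 3 lay within the range of the zones before it and zone 4 above them. The 100 most counted genes took 17.5 ± 0.364% in zone 1 and 16.9 ± 0.327% in zone 2 (SD, n = 5 each). There zone 3 lay above both and zone 4 below both. The 10 most counted genes took a mean of 4.33% in zone 4 and 4.80% in zone 3, and at most 4.09% in zones 1 and 2.

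Each changed gene was next placed by its level in zone 1. A gene was put in the return class when zone 3 had differed from zone 1 in the opposite direction, so that the step to zone 4 led back toward zone 1. It was put in the onward class when zone 3 had already differed from zone 1 in the same direction, and in the new class when zone 3 did not pass the test against zone 1, which does not show that their levels were equal. Of all genes tested 74.1% differed between zone 3 and zone 1, with 38.9% higher and 35.2% lower in zone 3. The contrasts share the zone 3 libraries, so a high or low zone 3 mean pushes a gene toward the return class.

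The risen genes split into 1889 return (26.1%), 3409 onward (47.0%) and 1948 new (26.9%). The fallen genes split into 3102 return (49.0%), 1932 onward (30.5%) and 1300 new (20.5%). Onward genes were thus the largest class among the rises, and return genes the largest among the falls. The return share ran from 17.1% to 30.0% of the risen genes and from 42.6% to 51.6% of the fallen genes over the alternative settings tried.

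**Figure D1:**
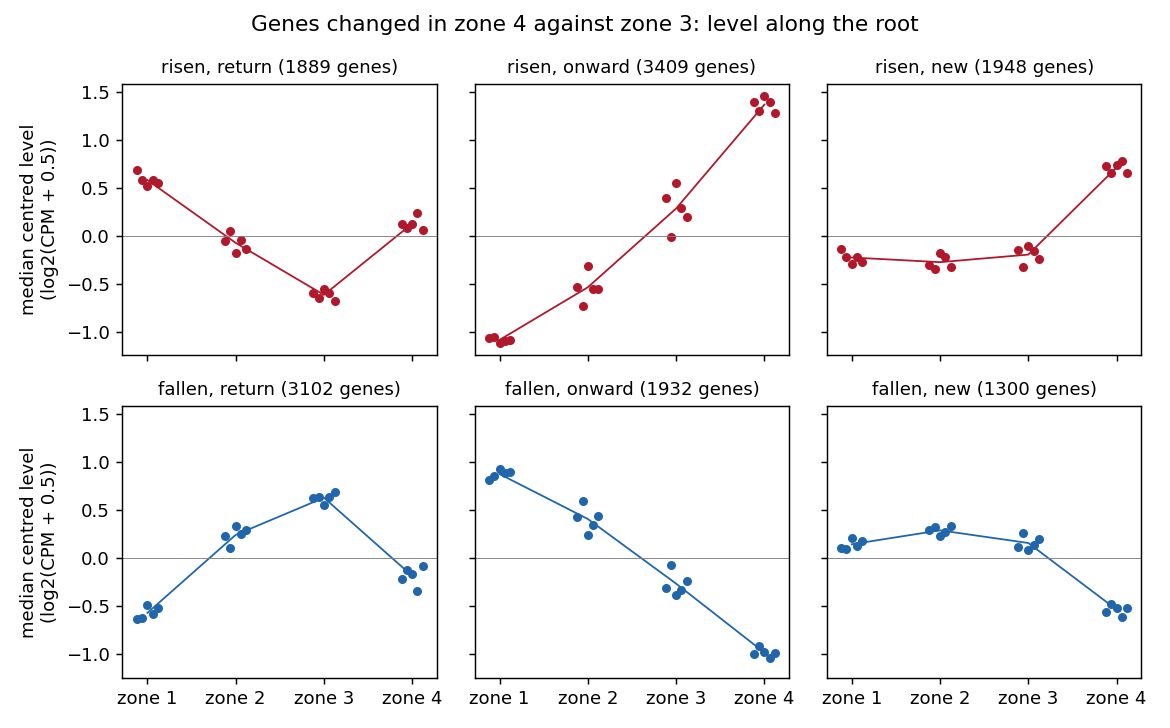
Level of the 6 classes along the root. The y axis gives, for each library, the median over the genes of a class of log2(CPM + 0.5) after subtracting each gene's mean over the 20 zone libraries; points are libraries, the line joins the zone means, and the x axis gives the zone. Risen return genes have a low point in zone 3 (mean -0.62) between zone 1 (0.58) and zone 4 (0.13), while risen new genes lie between -0.35 and -0.10 in zones 1 to 3 and between 0.65 and 0.78 in zone 4. The classes were chosen on these values.

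Close to 50% of the return genes were still short of their zone 1 level in zone 4. Of the 1889 risen return genes, 932 (49.3%) were still lower in zone 4 than in zone 1, 763 (40.4%) did not pass the test between zone 4 and zone 1, and 194 (10.3%) were higher in zone 4. Of all genes tested 78.2% differed between zone 4 and zone 1, with 40.6% higher and 37.5% lower in zone 4. Of the 3102 fallen return genes, 1510 (48.7%) were still higher in zone 4 than in zone 1, 1168 (37.7%) did not pass, and 424 (13.7%) were lower in zone 4. The median log2 difference between zone 4 and zone 1 was -0.35 for the risen return genes, against -1.22 between zone 3 and zone 1. For the fallen return genes it was 0.33, against 1.21.

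The levels of the return genes in zone 2 were looked at next. The step from zone 1 to zone 2 called 55.7% of the genes tested, with 28.1% higher and 27.6% lower in zone 2. Zone 2 already differed from zone 1, in the direction that zone 3 later showed, for 2585 of the 3102 fallen return genes (83.3%) and for 1388 of the 1889 risen return genes (73.5%). The same held for 63.5% of all 10794 genes higher in zone 3 than in zone 1 and for 71.2% of all 9773 genes lower there. These contrasts share the zone 1 libraries, which favours calls in the same direction. A further change in that direction between zone 2 and zone 3 was called for 1597 of the fallen and 1078 of the risen return genes. Of all genes tested 52.0% were called at that step, 26.2% higher and 25.8% lower in zone 3. This step shares the zone 3 libraries with the contrast that sets the class, which favours such calls. The share among all genes called in zone 3 against zone 1 was not taken for this step.

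Zone 4 lay outside the range of zones 1 to 3 for many changed genes. It was higher than each of the 3 other zones for 5117 risen genes (70.6%) and lower than each for 3297 fallen genes (52.1%). These included 3363 of the 3409 risen onward and 1905 of the 1932 fallen onward genes, whose class already places zone 4 past zones 1 and 3. Against zone 2 alone, 68.3% of all genes tested differed, with 33.8% higher and 34.4% lower in zone 4. No difference was called among zones 1, 2 and 3 for 1336 risen genes (18.4%) and 816 fallen genes (12.9%), which does not show that those levels were equal. The share of all genes tested without such a call was not taken.

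MA_88684g0010 had the largest rise of the new class among genes averaging at least 10 CPM over both zones with no overlap between the zones. Its zone 4 libraries held 53.7, 49.8, 71.3, 65.8 and 52.2 CPM, and it had no count in any library of zones 1, 2 and 3. Counting 3 reads over a zone as the floor, zone 4 was at least 473-fold higher than zone 3 and at least 534-fold higher than zone 1 (edgeR adjusted p = 4.5e-10 against zone 3). The gene passed the filter on low counts by its zone 4 counts alone and was the largest of 631 candidates. The genes named by class were chosen among those called in zone 4 against zone 3 without overlap. Their p-values in that contrast are therefore not separate tests. It also had no count in any of the 20 captured libraries.

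MA_65845g0010 had the largest rise of the return class. It was at 21.2, 18.7, 14.3, 39.9 and 11.8 CPM in the zone 4 libraries, against 1.41, 1.46, 1.30, 0.462 and 1.18 CPM in the zone 3 libraries. As the choice required, every zone 4 library lay above every zone 3 library, and replicate 4 was highest. The log2 fold change was 4.14 ± 0.37 (SE, edgeR adjusted p = 4.54e-09). Zone 1 had held 10.9 to 22.2 CPM and zone 2 1.72 to 4.48 CPM. Zone 4 and zone 1 differed by a log2 difference of 0.34 ± 0.26 (SE), which did not pass the test (edgeR adjusted p = 0.228). In the steles it had 5 counts in stele 1 and none in steles 2 and 3.

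MA_44257g0010 had the largest fall of the return class, and it fell past its zone 1 level. The zone 4 libraries held 1.93, 0.617, 0.286, 0.192 and 0.422 CPM and the zone 3 libraries 26.4, 54.9, 17.9, 37.6 and 44.1 CPM. Zone 2 had been highest, at 56.1 to 67.1 CPM, and zone 1 held 10.8 to 19.1 CPM. The log2 fold change of zone 4 against zone 3 was -5.79 ± 0.38 (SE, edgeR adjusted p = 3.62e-11), and -6.51 without zone 4 replicate 1, which held 8 of the 16 zone 4 counts. Against zone 1 it was -4.53 ± 0.41 (SE, edgeR adjusted p = 5.7e-10). All 3 steles held this gene, with 94.4 ± 35.9 CPM in stele 3, 143 ± 34.8 CPM in stele 2 and 55.6 ± 21.3 CPM in stele 1 (SD, n = 4 each).

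MA_111906g0010 had the largest fall of the new class. It was at 7.22, 1.85, 2.58, 0 and 3.59 CPM in zone 4, against 75.4, 206, 38.0, 91.4 and 106 CPM in zone 3, where replicate 2 was highest and replicate 3 lowest. The log2 fold change was -5.14 ± 0.43 (SE, edgeR adjusted p = 1.52e-09). The zone 1 mean of 104 ± 19.4 CPM was close to the zone 3 mean of 103 ± 62.9 CPM (SD, n = 5 each), but zone 2 had held 215 ± 13.5 CPM, and zone 3 was already lower than zone 2 (log2 fold change -1.06, edgeR adjusted p = 0.00562). In the captured table it averaged 2.99 ± 3.24 CPM in stele 3 and 46.5 ± 27.7 CPM in stele 1 (SD, n = 4 each). Stele 3 was lower by a log2 difference of -3.94 ± 0.73 (SE, edgeR adjusted p = 0.000254).

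**Figure D2:**
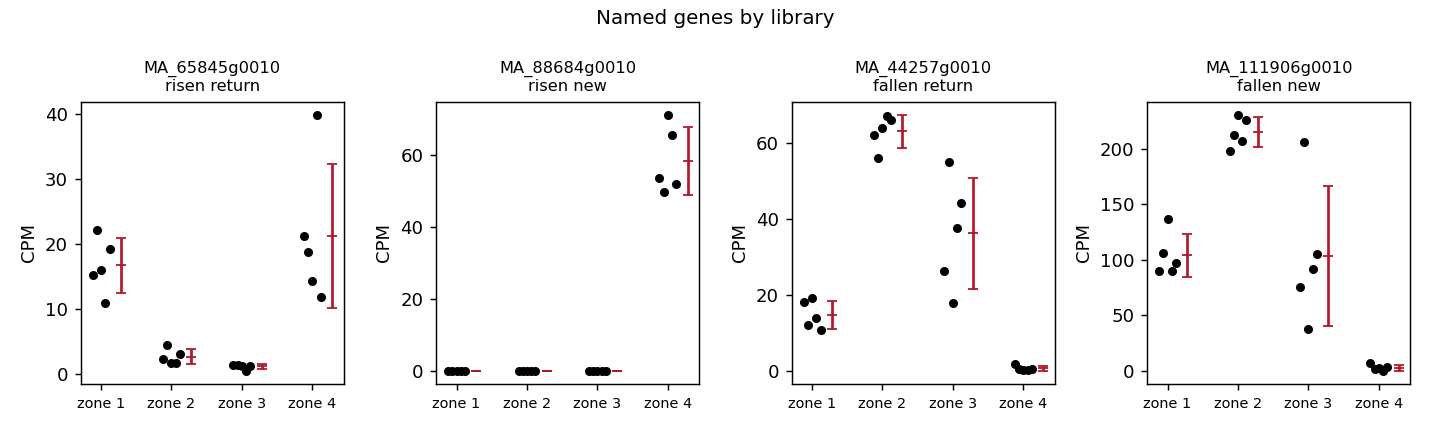
CPM of the 4 genes named by class, in each library of zones 1 to 4. Black points are libraries and the red bar is the mean ± SD (n = 5); each panel has its own linear y axis. MA_88684g0010 is at 0 in zones 1 to 3, and MA_65845g0010 is low in zones 2 and 3 between higher values in zones 1 and 4.

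The step from zone 1 to zone 2 shares no library with the step from zone 3 to zone 4, so the direction of a gene in both can be set side by side. Of the 7799 genes higher in zone 2 than in zone 1, 2970 (38.1%) fell in zone 4 against zone 3 and 1801 (23.1%) rose. Of the 7663 genes lower in zone 2, 1348 (17.6%) fell in zone 4 and 1698 (22.2%) rose. The shares over all genes tested were 22.8% fallen and 26.1% risen. A fall in zone 4 thus stood above its background share among genes that had risen in zone 2, whereas a rise stood slightly below its background share among genes that had fallen in zone 2.

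With first steps of at least 2-fold, 1372 of 3700 genes higher in zone 2 (37.1%) fell in zone 4, and 318 of 3282 genes lower in zone 2 (9.69%) did. Seen from the other side, 46.9% of the 6334 fallen genes had risen in zone 2, and 23.4% of the 7246 risen genes had fallen in zone 2. Across the 27767 genes the log2 fold changes of both steps had a Pearson r of -0.090, given as a description, since genes are not independent replicates. Libraries of zones 2 and 3 with the same replicate number deviated together, as replicates 2 and 3 did on the line between zones 2 and 4, and the part of this in the shares was not tested.

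**Figure D3:**
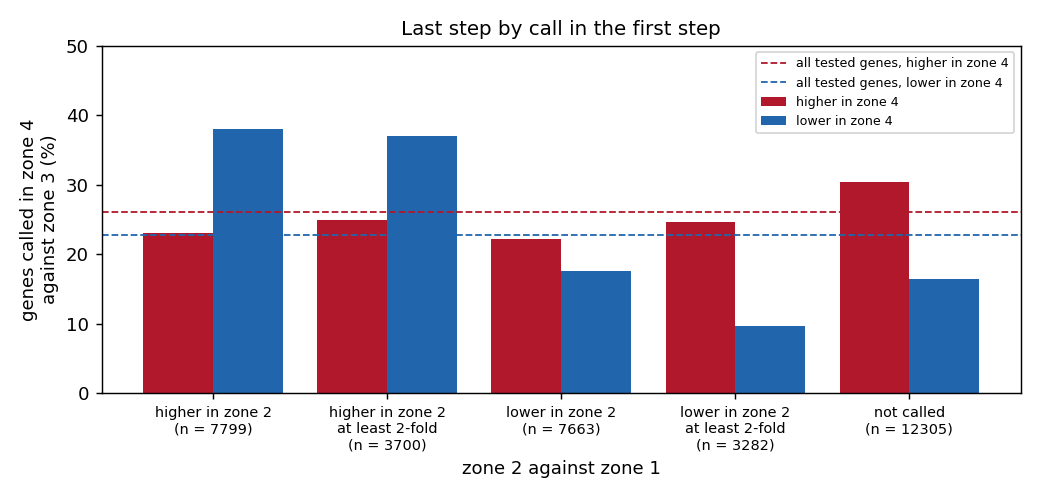
Share of genes called higher (red) or lower (blue) in zone 4 against zone 3, by their call in zone 2 against zone 1. The y axis is in percent of the genes in each group on the x axis, and the dashed lines give the shares over all 27767 genes tested. The blue bars of the genes higher in zone 2 reach 38.1% and 37.1%, above the dashed blue line at 22.8%.

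Genes whose IDs share the number before the letter g lie on one scaffold in the spruce naming scheme. Where both genes of such a pair were called at this step, they mostly changed in the same direction. Among 1537 pairs of tested genes on one scaffold, both genes were called in 463 (30.1%). In 396 of these (85.5%) both rose or both fell. Of single genes tested 48.9% were called, and of those called 53.4% had risen and 46.6% had fallen. These are shares of single genes, and shares among pairs on different scaffolds were not taken. Without strand information, reads of overlapping genes or of near-identical copies cannot be told apart, and their part in the 85.5% was not tested.

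The changed genes were then looked up in the captured steles. A gene was counted as seen in a group when it had at least 1 CPM in at least 3 of the 4 libraries. The captured RNA was extracted with another kit, so levels were not compared between the tables. The sources used here do not say whether any captured group came from zone 4. Of the 7246 risen genes 5441 (75.1%) were seen in at least 1 stele, and of the 6334 fallen genes 5566 (87.9%), where the share over all genes tested in the zones was 80.6%. The risen genes were seen in stele 3 in 65.9%, in stele 2 in 64.0% and in stele 1 in 61.7% of cases. The fallen genes were seen in stele 3 in 79.5%, in stele 2 in 82.9% and in stele 1 in 80.1%. Over all genes tested in the zones the shares were 66.8% in stele 3, 70.2% in stele 2 and 71.1% in stele 1. The share of risen genes was thus below that of all genes in each stele, and least so in stele 3.

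By class, 88.1% of the risen return genes were seen in a stele, 69.6% of the risen onward and 72.1% of the risen new genes. Among the fallen genes the shares were 86.6% of the return, 92.5% of the onward and 84.2% of the new class. Of the risen return genes 89.4% were seen in ground tissue and 90.3% in the QC area. For the risen onward genes these shares were 44.1% and 44.2%, and for the risen new genes 64.7% and 64.9%.

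The genes that rose most were the least often found there. Among the 463 genes that rose at least 8-fold, 99 (21.4%) were seen in a stele, 19 (4.10%) were seen in ground tissue or the QC area but in no stele, and 345 (74.5%) were seen in no captured group. 149 of them had no count in any captured library. Over all 27767 genes tested in the zones, the shares were 80.6%, 3.64% and 15.7% in the same order, and 532 genes had no captured count. The 4.10% was thus close to its share over all genes. For rises under 2-fold the share seen in a stele was 89.0%, for 2- to 4-fold 69.0%, and for 4- to 8-fold 49.2%. The 187 genes that fell at least 8-fold were seen in a stele in 77.0% of cases.

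Shares were also taken among well-counted genes. There an 8-fold rise passes by its zone 4 level and an 8-fold fall by its zone 3 level. The median in zone 3 was 0.535 CPM over the 463 genes with such a rise and 10.7 CPM over the 187 with such a fall. A limit on the mean of both zones therefore does not make these groups alike in zone 3. Among genes averaging 10 CPM or more over zones 3 and 4, 154 of 196 genes with an 8-fold rise (78.6%) were seen in no captured group, against 10 of 80 genes with an 8-fold fall (12.5%) and 1027 of all 13303 tested genes at that level (7.72%). Of the 101 genes with no count in zone 3, 70 had no count in any captured library and 1 was seen in a stele.

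**Figure D4:**
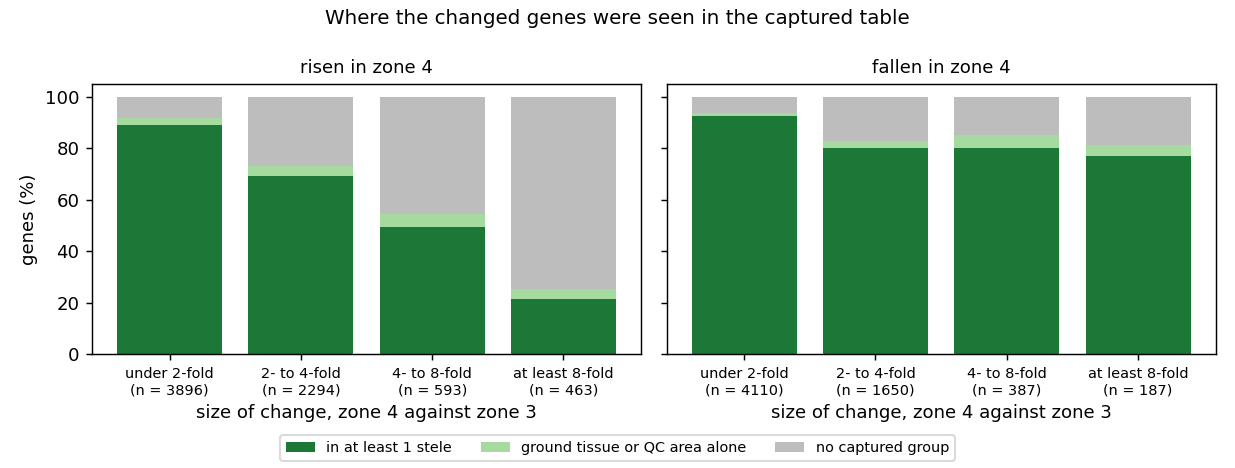
Where the genes changed in zone 4 against zone 3 were seen in the captured table, by direction and size of the change. Bars add up to 100% of the genes named under each bar; dark green is at least 1 stele, light green ground tissue or the QC area without a stele, and grey no captured group. The grey part of the risen genes runs from 8.52% under 2-fold to 74.5% at 8-fold or more, and that of the fallen genes from 6.23% to 18.7%.

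Within the captured table, stele 3 was set against stele 1 for the genes that passed the filter on low counts there, which were 5712 of 7246 risen genes (78.8%) and 5766 of 6334 fallen genes (91.0%). Genes with the same direction at the last zone step went opposite ways between the steles, by class. Of 2410 risen onward genes tested, 1336 (55.4%) were higher in stele 3 and 42 (1.74%) lower. Of 1788 risen return genes, 44 (2.46%) were higher in stele 3 and 878 (49.1%) lower. Both classes rose in zone 4, and they lay on opposite sides in the steles. The classes are set by the sign of zone 3 against zone 1, and all genes with that sign lay on the same sides. Of the 8516 genes higher in zone 3 than in zone 1 and tested in the captured table, whatever their last step, 4445 (52.2%) were higher in stele 3 than in stele 1 and 194 (2.28%) lower. Of the 9234 genes lower in zone 3, 130 (1.41%) were higher in stele 3 and 5187 (56.2%) lower. Among those not called in zone 4 against zone 3, 49.0% of the genes higher in zone 3 than in zone 1 were higher in stele 3, and 57.0% of the genes lower in zone 3 were lower. Over all 27239 genes tested there, 46.1% were called, 20.9% higher and 25.2% lower in stele 3 (edgeR's quasi-likelihood test).

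The fallen genes divided in the same way. Of 2746 fallen return genes, 1463 (53.3%) were higher in stele 3 and 87 (3.17%) lower, and of 1851 fallen onward genes 32 (1.73%) were higher and 1120 (60.5%) lower. The new classes had fewer calls. Of 1514 risen new genes 252 (16.6%) were higher in stele 3 and 110 (7.27%) lower, and of 1169 fallen new genes 126 (10.8%) were higher and 207 (17.7%) lower. With total counts in place of TMM, the median of all genes in this contrast moved by -0.40 on the log2 scale, the risen new genes turned to 119 higher and 235 lower, and the fallen new genes had 54 higher and 395 lower. Within lane 7 the fallen new genes had 26 higher and 24 lower. The onward and return classes kept their sides with total counts.

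Steles 1 and 3 were sequenced over lanes 7 and 8, and all zone libraries in lane 3. Within lane 7, with 3 libraries of stele 3 and 2 of stele 1, the risen onward genes had 567 higher and 9 lower, the risen return genes 11 and 260, the fallen return genes 745 and 12, and the fallen onward genes 14 and 443. Within lane 8, with 1 library of stele 3 and 2 of stele 1, the numbers were 1115 and 64, 30 and 898, 1048 and 98, and 20 and 932 in the same order of classes. The lone stele 3 library is assumed there to vary like the other groups. The side on which each of these 4 classes had most of its genes was the same within both lanes.

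**Figure D5:**
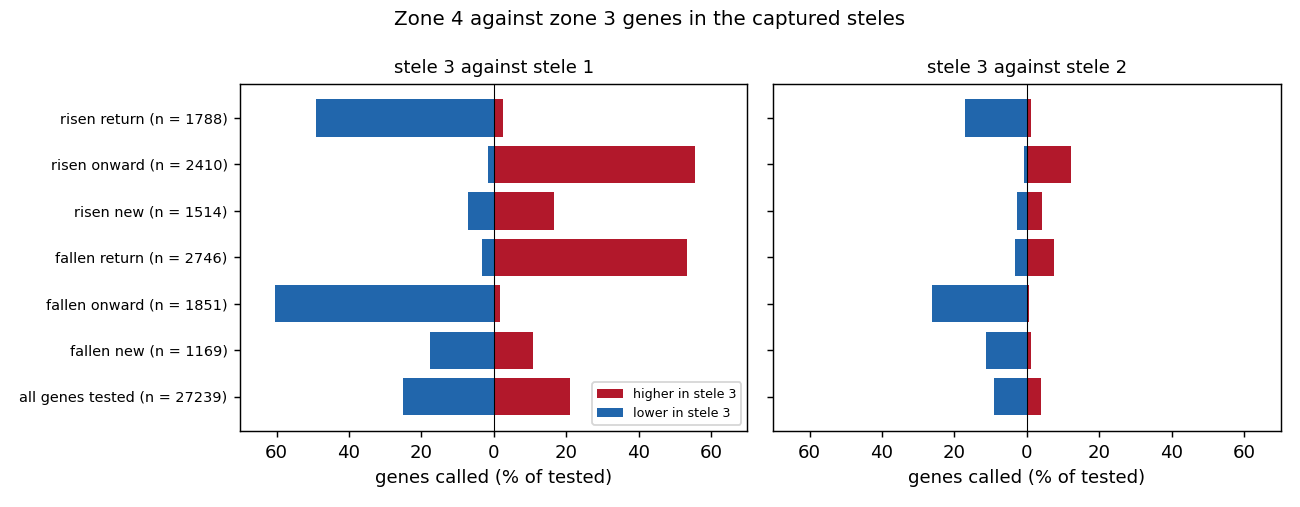
Share of the genes of each class called higher (red, to the right) or lower (blue, to the left) in stele 3 against stele 1 and in stele 3 against stele 2. The x axis is in percent of the genes of a class tested in the captured table, and the lowest bar gives all 27239 genes tested. Against stele 1 the risen onward bar reaches 55.4% on the right and the risen return bar 49.1% on the left.

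In stele 3 against stele 2 fewer genes were called. Of the risen onward genes 295 (12.2%) were higher in stele 3 and 22 (0.913%) lower, and of the risen return genes 19 (1.06%) and 306 (17.1%). Of the fallen onward genes 12 (0.648%) were higher and 487 (26.3%) lower, and of the fallen return genes 207 (7.54%) and 90 (3.28%). In stele 2 against stele 1 the fallen return genes had 1112 higher (40.5%) and 5 lower (0.182%), and the risen onward genes 799 (33.2%) and 14 (0.581%). The classes are set by the sign of zone 3 against zone 1. Over all 23730 genes tested in both tables that contrast had a Pearson r of 0.76 with stele 2 against stele 1 and 0.55 with stele 3 against stele 2. Shares among all genes with the same sign, whatever their last step, were not taken for these contrasts.

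Without regard to class, the changed genes were divided between both sides in the steles. In stele 3 against stele 1, 1632 of 5712 risen genes (28.6%) were higher and 1030 (18.0%) lower, and 1621 of 5766 fallen genes (28.1%) were higher and 1414 (24.5%) lower. These balances turned with total counts, to 1224 risen genes higher and 1454 lower, and 1188 fallen genes higher and 2000 lower, and that of the fallen genes also within lane 8, with 1134 higher and 1241 lower. Within lane 7 the risen genes had 618 higher and 278 lower, and the fallen genes 785 and 479. In stele 3 against stele 2, where 13.0% of all genes were called, 3.85% higher and 9.16% lower, 375 risen genes (6.57%) were higher and 370 (6.48%) lower, and 233 fallen genes (4.04%) were higher and 708 (12.3%) lower. Total counts gave 212 and 558 risen, and 137 and 1158 fallen genes, so the near balance of the risen genes rests on the scaling. The 375 became 192 without stele 2 replicate 3, 190, 228 and 229 without stele 3 replicates 1, 3 and 4, and the 233 became 128 without stele 2 replicate 3 and 153 and 124 without stele 3 replicates 1 and 3. Within lane 7, with 3 stele 3 and 4 stele 2 libraries, the risen genes had 22 higher and 25 lower and the fallen genes 42 and 58, and lane 8 held no stele 2 library.

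In stele 2 against stele 1, where 21.4% of all genes were called, 12.4% higher and 8.97% lower, 883 risen genes (15.5%) were higher and 430 (7.53%) lower, and 1203 fallen genes (20.9%) were higher and 471 (8.17%) lower. Total counts gave 730 and 551 risen, and 985 and 699 fallen genes. Stele 1 replicate 3 weighed on this contrast, since without it 576 risen genes were higher and 255 lower and 297 fallen genes were lower. The last of these counts was also 310 without stele 1 replicate 2, 302 without stele 2 replicate 1 and 284 without stele 2 replicate 2. Within lane 7, with 4 stele 2 and 2 stele 1 libraries, the risen genes had 145 higher and 12 lower and the fallen genes 281 and 7. The mean of the 3 steles was higher than ground tissue for 1462 risen genes (25.6%) and lower for 1022 (17.9%), and higher for 1773 fallen genes (30.7%) and lower for 1124 (19.5%), where 42.6% of all genes were called, 21.1% higher and 21.5% lower. With total counts both balances turned, to 1176 risen genes higher and 1393 lower, and 1438 fallen genes higher and 1591 lower. Within lane 7, which held 1 ground tissue library, assumed to vary like the other groups, the risen genes had 279 higher and 123 lower and the fallen genes 548 and 122.

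Across the 23730 genes tested in both tables, log2 fold changes of stele 3 against stele 1 had a Pearson r of 0.0076 with those of zone 4 against zone 3. With zone 3 against zone 1 the r was 0.80, with zone 3 against zone 2 it was 0.73 and with zone 2 against zone 1 it was 0.70. For stele 3 against stele 2 the r was 0.064 with zone 4 against zone 3 and 0.59 with zone 3 against zone 2. The tables share no library, and these values describe genes, which are not independent replicates.

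MA_132211g0010 rose at the last zone step and had the largest rise in stele 3 against stele 2 among the risen genes with at least 10 CPM on average in both pairs of groups. This gene and those below were chosen among genes called in both contrasts, so their p-values there are not separate tests. It was at 40.4, 93.0, 86.4, 72.1 and 72.8 CPM in zone 4, against 26.9, 5.86, 20.1, 21.01 and 13.0 CPM in zone 3, and every zone 4 library was higher (log2 fold change 2.05 ± 0.28 (SE), edgeR adjusted p = 4.86e-06). It had no count in zone 1. In stele 3 it was at 243, 80.2, 212 and 104 CPM and in stele 2 at 11.7, 5.34, 0.686 and 0 CPM, a log2 difference of 5.16 ± 1.01 (SE, edgeR adjusted p = 0.00892). Stele 1, ground tissue and the QC area had no count, and stele 3 was at least 1602-fold higher than stele 1, with 3 reads over the group as the floor. Without stele 2 replicate 1 the stele log2 fold change was 6.17, and within lane 7 it was 4.89 and no longer passed (edgeR adjusted p = 0.0684).

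MA_381787g0010 rose as well, by a log2 difference of 0.68 ± 0.17 (SE, edgeR adjusted p = 0.00185), and among the risen genes at 10 CPM or more it had the largest fall in stele 3 against stele 2. Its zone 4 libraries held 17.3, 16.5, 13.7, 14.4 and 10.8 CPM and its zone 3 libraries 9.84, 12.2, 8.56, 7.39 and 7.31 CPM, with an overlap between the zones. Zone 1 had held 77.6 to 88.8 CPM, so the rise covered a small part of the earlier loss. Stele 3 was at 1.02, 0.377, 0 and 0.358 CPM and stele 2 at 32.3, 18.3, 41.9 and 9.85 CPM, a log2 difference of -5.87 ± 0.59 (SE, edgeR adjusted p = 1.54e-05), which was -6.65 without stele 3 replicate 1 and -6.63 within lane 7. Ground tissue held 74.5 ± 11.5 CPM (SD, n = 4).

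MA_44185g0010 fell in zone 4 and, among the fallen genes at 10 CPM or more, had the largest fall in stele 3 against stele 2. It was at 2.41, 0.823, 2.43, 1.73 and 1.48 CPM in zone 4, against 13.9, 60.3, 4.28, 18.7 and 10.1 CPM in zone 3, a log2 difference of -3.52 ± 0.53 (SE, edgeR adjusted p = 7.7e-06). Without zone 3 replicate 2, by far the highest zone 3 library, it was -2.65 and still passed. Stele 3 held 0.203, 18.1, 8.02 and 5.55 CPM and stele 2 held 160, 140, 222 and 184 CPM, without overlap. The stele log2 fold change was -4.46 ± 0.61 (SE, edgeR adjusted p = 0.000214), and -5.25 without stele 3 replicate 2.

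MA_202096g0010 fell in zone 4 by a log2 difference of -0.75 ± 0.17 (SE, edgeR adjusted p = 0.000987) and had the largest rise in stele 3 against stele 2 among the fallen genes at 10 CPM or more. Zone 4 libraries held 25.03, 27.6, 37.8, 24.7 and 27.7 CPM and zone 3 libraries 53.6, 37.6, 59.7, 42.5 and 46.9 CPM, with replicate 3 of zone 4 just above replicate 2 of zone 3. Stele 3 held 7.11, 35.2, 25.3 and 61.6 CPM and stele 2 held 2.07, 0.917, 2.74 and 0.884 CPM, a log2 difference of 4.28 ± 0.73 (SE, edgeR adjusted p = 0.00162). Ground tissue had 2 counts and the QC area none. Zone 1 had held 11.8 ± 2.27 CPM and zone 2 13.1 ± 4.27 CPM (SD, n = 5 each), and zone 4 stayed higher than zone 1, by a log2 difference of 1.29 ± 0.19 (SE, edgeR adjusted p = 1.44e-06).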

How the data were processed

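RNA was sequenced from 20 zone libraries and 20 captured libraries. Per the labels' protocols, RNeasy columns followed a chloroform extraction for zone RNA, and the RNAqueous-Micro kit served for captured RNA. The submitters' processing notes name the tools Trimmomatic, STAR and HTSeq. The sources used here give no version, genome build, annotation or strand setting for them. The authors deposited raw read counts per gene ID, 1 table for the zones and 1 for the captured groups. The stele columns carry the letter Z and a number and were assigned by elimination within their table. No column was left without a sample.

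Both tables were fitted separately in edgeR 4.0.16 under R 4.3.3 (filterByExpr, TMM, glmQLFit and glmQLFTest on all its groups, Benjamini-Hochberg adjustment, threshold 0.05), leaving 27767 and 27239 genes, which held at least 98.8% of each zone library's counts. CPM values use the TMM-scaled totals. The SE is the log2 fold change divided by the square root of F. Bounds against 3 counts cover counting error only. Replicates differed by more than sampling noise (smallest chi-square per gene 2.00). Same-numbered libraries were compared for zones 4 and 3, 3 and 1, 4 and 1, 2 and 1, 3 and 2, and for each pair of steles, and only for zones 3 and 2 did every such pair correlate above 0.1.

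The named genes were 1 each for the largest rise and fall of the return and new classes, at 10 CPM or more and without overlap, and 4 by their stele 3 against stele 2 change. All were taken from genes already called in the contrasts that chose them, so their p-values there are not separate tests. The members, lists and tests were chosen with earlier results of these data known. Gene lists and cell type markers by product name could not be applied without names for the IDs.

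On simulated counts for zone 4 against zone 3, over 27370 genes, 65% of 2-fold and 92% of 4-fold changes were recovered with 6.55% false calls. For stele 3 against stele 2, over 26271 genes, 2% and 52% were recovered. Each simulation changed 200 genes, far fewer than the 13580 and 3543 called in the data for these comparisons. The rates therefore need not hold for the data. Alternatives were other scalings, no filter, DESeq2 1.42.0, fewer groups, lanes, a replicate block, a minimum fold, other limits for a gene to be seen, and each library left out.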

Additional observations from a re-analysis of the deposited data

Results flagged for a closer look

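In 4 of 29 sets of values examined, each over the libraries of 1 group, 1 library stood far from the others. All 4 were CPM values of a single named gene and do not mark the whole library as far. Chance gives about 1 in 20 such sets, but the named genes were picked on these data, so that rate need not hold. MA_65845g0010 was lowest in zone 3 replicate 4, at 0.462 CPM, on 2 counts. MA_44257g0010 was highest in zone 4 replicate 1, at 1.93 CPM. MA_44185g0010 was highest in zone 3 replicate 2, at 60.3 CPM, the library that also lay nearest to zone 2 on the line between zones 2 and 4. MA_202096g0010 was highest in zone 4 replicate 3, at 37.8 CPM.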

How the results depend on the processing

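Under every alternative run the named genes kept their direction and more genes were higher than lower in zone 4 against zone 3. In stele 3 against stele 1 the balance of higher and lower genes turned for the risen new genes with total counts, for the fallen new genes within lane 7, for all risen genes with total counts, and for all fallen genes with total counts and within lane 8. For the steles against ground tissue it turned for risen and fallen genes with total counts. The near balance of the risen genes in stele 3 against stele 2 turned under several alternatives. The values below moved by over 1.5 times or lost their call, and the cause was not tested beyond the fewer genes or libraries that some alternatives use. The lane, same-scaffold, size-class and no-minimum-level results were chosen after seeing the data. With total counts in place of TMM the median of all genes moved by 0.10 (log2) in zone 4 against zone 3 and 62.4% of its calls were higher, against 53.4%. In stele 3 against stele 2 this scaling gave 212 risen genes higher and 558 lower, and 137 fallen genes higher and 1158 lower. In stele 3 against stele 1 it gave 21 risen return genes higher, 87 risen onward genes lower, 119 risen new genes higher and 235 lower, 195 fallen return genes lower, and 54 fallen new genes higher and 395 lower. Without the filter on low counts there were 3343 risen new and 2714 risen late genes (no difference called among zones 1 to 3), and 282 fallen genes lower in stele 2 than in stele 1. DESeq2 called 710 risen and 466 fallen genes higher in stele 3 than in stele 2. A minimum of 2-fold left 3350 genes higher and 2224 lower in zone 4. Of the risen, 572 were return, 1473 onward and 2457 outside zones 1 to 3, and of the fallen 947 were return, 456 onward, 821 new and 1015 outside. It left 830 genes that rose in zone 2 and fell in zone 4, 536 with the reverse, and 142 of 151 same-scaffold pairs in the same direction. It also left 218 fallen genes lower in stele 2 than in stele 1, 665 lower in the steles than in ground tissue, and 64 fallen new genes higher in stele 3 than in stele 1. With only the 3 steles in the fit, stele 3 against stele 2 had 177 risen genes higher and 143 lower, and 144 fallen genes higher and 309 lower. Stele 2 against stele 1 then had 202 risen and 242 fallen genes lower, and stele 3 against stele 1 had 28 risen return genes higher, 22 risen onward and 58 risen new genes lower. Lane as a covariate gave 265 risen genes lower in stele 2 than in stele 1. Within lane 7, stele 3 against stele 2 had 22 risen genes higher and 25 lower, and 42 fallen genes higher and 58 lower. Stele 2 against stele 1 had 145 and 12 risen, and 281 and 7 fallen genes. Stele 3 against stele 1 had 618 and 278 risen, and 785 and 479 fallen genes, by class 11 and 260 (risen return), 567 and 9 (risen onward), 40 and 9 (risen new), 745 and 12 (fallen return), 14 and 443 (fallen onward), and 26 and 24 (fallen new). The steles against ground tissue had 279 and 123 risen, and 548 and 122 fallen genes. MA_132211g0010 had a log2 difference of 4.89 there and did not pass. Within lane 8, stele 3 against stele 1 had 64 risen onward genes lower, and 20 fallen onward and 66 fallen new genes higher. At 5 CPM for a gene to be seen, 2175 risen genes were seen in all steles, 2831 in stele 1, 2901 in stele 2 and 3088 in stele 3, and 61 genes that fell at least 8-fold in no captured group. With no minimum level, 218 genes had no count in zone 3 and a count in every zone 4 library. Leaving out 1 library at a time gave 97 to 158 such genes, 190 to 437 risen and 124 to 281 fallen genes higher in stele 3 than in stele 2, and in stele 2 against stele 1 576 to 981 risen genes higher, 255 to 516 lower, and 284 to 554 fallen genes lower. Zone 4 and zone 3 libraries of the same number did not deviate together (correlations -0.0362 to 0.0858), and a replicate block gave 13689 calls, against 13580 without it, and changed no other count by over 1.5 times.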
